A study of Mus musculus with 8 samples.

Results

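The 10 genes described here encode the receptors and proximal signaling proteins through which an osteoclast precursor reads RANKL, M-CSF and costimulatory ligands. They were taken by symbol from the deposited expression table, which listed 25124 genes, and all 10 were found: Tnfrsf11a, Traf6, Csf1r, Oscar, Trem2, Tyrobp, Fcer1g, Syk, Plcg2 and Src. RNA was sequenced from osteoclast precursor (OCP) cells, grown from mouse bone marrow, in 4 groups of 2 libraries. The labels give the mice as C57BL/6 aged 6 to 8 weeks, whereas the culture methods of the study name ICR mice. Marrow cells were first kept for 16 h in 5 ng/mL M-CSF, and the non-adherent cells were then grown for 3 days in 30 ng/mL M-CSF. The groups were no PRDX1 + no RANKL, PRDX1 + no RANKL, no PRDX1 + RANKL and PRDX1 + RANKL, treated for 48 h, all in 30 ng/mL M-CSF. PRDX1 was a His-tagged recombinant protein made in E. coli and freed of endotoxin by the study, given at 200 nM, and RANKL was given at 100 ng/mL. The labels named no genotype other than the strain, and the study lists its ICR and C57BL/6J mice as wild type. The sources used here do not say whether the libraries of a group came from separate cultures or animals, so the p-values measure the spread between these libraries, which may be technical.

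Osteoclasts arise from myeloid precursors that M-CSF keeps alive and that RANKL commits. RANK, encoded by Tnfrsf11a, binds RANKL and recruits the adaptor TRAF6, which feeds NF-κB and MAP kinase signaling. The M-CSF receptor, encoded by Csf1r, is a receptor tyrosine kinase. A parallel costimulatory signal comes from receptors without signaling tails of their own, such as OSCAR and TREM2, which pair with the adaptors FcRγ (Fcer1g) and DAP12 (Tyrobp). These adaptors carry immunoreceptor tyrosine-based activation motifs (ITAMs). Src family kinases phosphorylate the ITAM, which then docks SYK, and SYK engages PLCγ2 (Plcg2) to release calcium and activate NFATc1, the transcription factor of osteoclast differentiation. c-Src itself is also needed for the cytoskeletal organisation of bone-resorbing osteoclasts.

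Expression is given as FPKM, the fragments counted on a gene's exons divided by the length of its transcript and by the library total. Library totals recovered from the values ranged from 27284667 to 46171727 reads. Differences were tested by limma on log2(FPKM + 1) over 11700 genes with a mean of at least 0.5 FPKM, and a gene was called where the Benjamini-Hochberg adjusted p was under 0.05 and the fold change at least 1.5. Fold changes on this scale understate those of genes with low FPKM. All 10 genes passed the filter, Oscar only through its level with RANKL. In a bulk library, fewer cells of a type and less RNA per cell cannot be told apart.

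On the per-length scale of FPKM, the 10 genes spanned the whole range of expression. Tyrobp was among the most abundant transcripts of the cells and ranked between 16 and 21 of the 25124 genes by group mean. Fcer1g ranked between 66 and 160, Csf1r between 104 and 243 and Trem2 between 101 and 339. Tnfrsf11a, Syk and Plcg2 lay between 32.3 and 59.4 FPKM in every library, and Traf6 between 7.84 and 10.9 FPKM. Src and Oscar were the genes whose rank moved most: Src ranked 11103 with neither treatment and 2148 with RANKL, and Oscar 15296 and 6333.

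**Figure D1:**
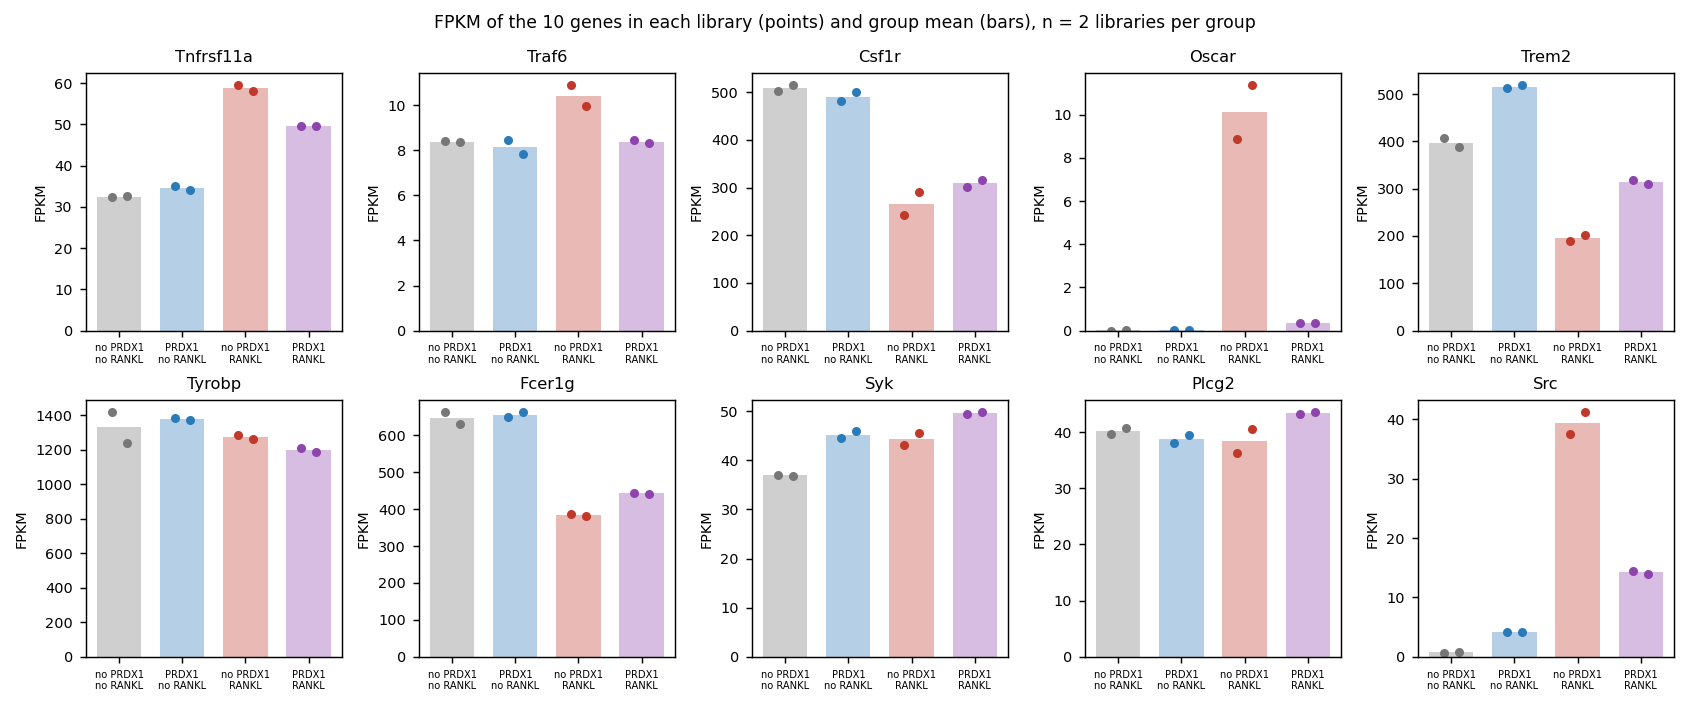
FPKM (vertical axes, linear and starting at 0, a separate scale for each gene) of the 10 genes in the 4 groups, with points for the 2 libraries of a group and bars for their mean. Oscar and Src stand highest with RANKL alone, at 10.1 and 39.4 FPKM, and lower with PRDX1 + RANKL, at 0.337 and 14.2 FPKM, while Trem2 is lowest with RANKL alone, at 196 FPKM.

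RANKL without PRDX1 moved more of these genes than any other pairwise comparison made, with 3 higher (Oscar, Src and Tnfrsf11a), 3 lower (Csf1r, Fcer1g and Trem2) and 4 not called. Across all genes 21.8% were called in this comparison, 11.8% higher and 9.96% lower. That balance turned with the scaling, from 1383 genes higher and 1165 lower to 1088 and 1322 under quantile normalization and 1153 and 1302 under upper quartile scaling. With PRDX1 present, RANKL left 1 gene called higher (Src) and 2 lower (Csf1r and Trem2), against 8.5% of all genes called, 4.52% higher and 3.98% lower. Here too it turned, from 529 higher and 466 lower to 457 and 563, and to 466 and 542. PRDX1 without RANKL raised 1 gene, Src, and lowered 0, where 5.79% of all genes were called, 3.8% higher and 1.99% lower. The number lowered was also 0 at an unadjusted p under 0.05 and by voom on the recovered reads. PRDX1 added to RANKL lowered Oscar and Src and raised Trem2, so 3 of 10 were called, against 10.2% of all genes, 6.03% higher and 4.17% lower. Cells with PRDX1 + RANKL, set against those with neither, had 2 genes higher (Src and Tnfrsf11a) and 1 lower (Csf1r), with 12.8% of all genes called, 7.5% higher and 5.34% lower. Oscar was called higher as well in this comparison with a pseudocount of 0.1 and by voom on the recovered reads. The test of the interaction asks whether PRDX1 acts differently once RANKL is present. Oscar and Src were called, both in the negative direction, beside 8.85% of all genes, 4.5% in the positive and 4.35% in the negative direction. Oscar had at most 2 reads in each library without RANKL, so PRDX1 had no level to lower there. The interaction of Oscar therefore restates its change with RANKL. None of the 10 was called positive, by voom either, though 4 had a positive interaction at an unadjusted p under 0.05. The comparisons share control libraries, so their calls are not independent of each other.

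**Figure D2:**
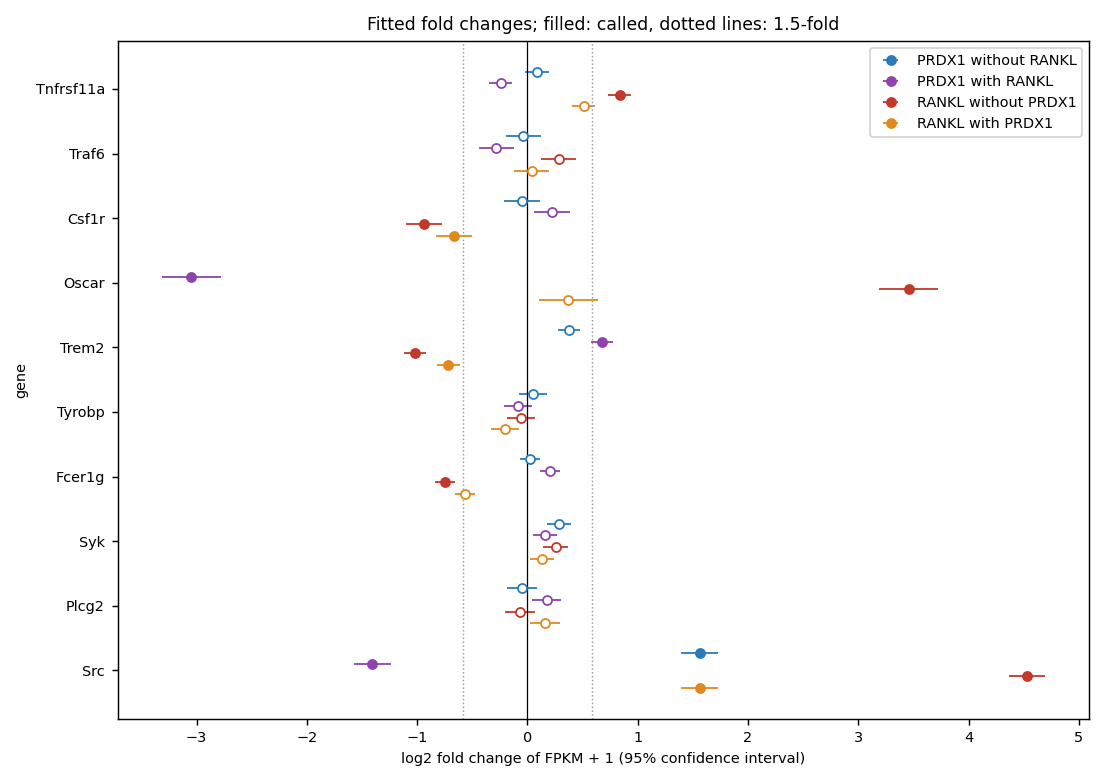
Fitted log2 fold changes of FPKM + 1 (horizontal axis) with their 95% confidence intervals for the 10 genes (vertical axis) in 4 comparisons, with filled points for calls and dotted lines at 1.5-fold. Src was called in all 4 comparisons, from 4.53 for RANKL without PRDX1 to -1.41 for PRDX1 with RANKL, and Tyrobp, Syk, Plcg2 and Traf6 in none of them. Oscar is not drawn for PRDX1 without RANKL, where both groups lay under 3 reads per library.

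Tnfrsf11a (NM_009399, chr1:105780723-105847981, plus strand, mm10) encodes RANK, the receptor that RANKL binds. Its level was 32.3 and 32.6 FPKM with neither treatment, 34.96 and 34.0 FPKM with PRDX1, 59.4 and 58.0 FPKM with RANKL, and 49.5 and 49.6 FPKM with both. The 4 groups did not overlap, and those with RANKL stood highest. RANKL raised Tnfrsf11a 1.79-fold (log2 0.84, SE 0.05, limma adjusted p = 1.89e-07). With PRDX1 present the fitted fold was 1.42 (log2 0.51, SE 0.05, adjusted p = 2.28e-05), which did not reach 1.5-fold. PRDX1 by itself gave a log2 difference of 0.09, with a 95% confidence interval from -0.02 to 0.19. PRDX1 added to RANKL gave -0.24 (SE 0.05, adjusted p = 0.00234), and the interaction was -0.33 (SE 0.07, adjusted p = 0.00609), both short of 1.5-fold. The call for both treatments against neither (log2 0.60) lay just past 1.5-fold, and it was lost under quantile normalization (0.57) and upper quartile scaling (0.58).

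Traf6 (NM_001303273, chr2:101678420-101701668, plus strand), the ubiquitin ligase that RANK recruits, was called in none of the 6 comparisons. Its FPKM was 8.42 and 8.35 with neither treatment, 8.44 and 7.84 with PRDX1, 10.9 and 9.98 with RANKL, and 8.45 and 8.33 with both. RANKL alone therefore stood above the other groups, which overlapped each other. The difference made by RANKL was 0.28 on the log2 scale (SE 0.07, adjusted p = 0.00618), and that made by PRDX1 in the presence of RANKL was -0.28 (SE 0.07, adjusted p = 0.00944). Neither reached 1.5-fold.

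Csf1r (NM_001037859, plus strand) encodes the receptor through which M-CSF, present in every culture, maintains these cells. The libraries held 503 and 514 FPKM with neither treatment, 481 and 501 FPKM with PRDX1, 241 and 290.3 FPKM with RANKL, and 301 and 317 FPKM with both. The groups with RANKL lay below those without it, and PRDX1 + RANKL lay above RANKL alone by less than the range of the RANKL libraries. RANKL lowered Csf1r to 0.522 of its level (log2 -0.94, SE 0.07, adjusted p = 2.21e-06) and, with PRDX1 present, to 0.630 of it (log2 -0.67, SE 0.07, adjusted p = 7.53e-05). PRDX1 gave -0.05 without RANKL (95% confidence interval -0.22 to 0.11) and 0.22 with RANKL (SE 0.07, adjusted p = 0.0352), neither of which was called. The interaction of 0.27 did not pass the adjusted threshold (adjusted p = 0.0906). Both values rest on the RANKL libraries, which lay far apart: without no PRDX1 + RANKL replicate 1 they were 0.09 and 0.14, and without replicate 2 of that group 0.35 and 0.40, none of them called.

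The ratio of Tnfrsf11a to Csf1r within a library, which does not depend on how libraries are scaled, spread the groups apart. It was 0.0642 and 0.0634 with neither treatment and 0.0728 and 0.0680 with PRDX1. With RANKL it was 0.246 and 0.200, and with PRDX1 + RANKL 0.165 and 0.157. The groups did not overlap, and RANKL alone stood highest. This ratio and those given below were chosen after the levels had been seen and are descriptions without a test.

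Oscar (NM_001290377, chr7:3609815-3616157, minus strand), the osteoclast-associated receptor for collagen motifs, pairs with FcRγ. It was at or near 0 without RANKL, with 0 and 1 reads in the libraries with neither treatment and 2 reads in each of the libraries with PRDX1, where a floor of 3 reads corresponds to between 0.0394 and 0.0557 FPKM. With RANKL it reached 8.88 and 11.4 FPKM, from 441 and 714 reads. With PRDX1 + RANKL it stood at 0.333 and 0.341 FPKM, from 28 and 26 reads. RANKL alone was thus the only group with a level above 1 FPKM. Counted over the libraries of each group, the rate of Oscar reads was 1334 times higher with RANKL than with neither treatment, with a 95% exact interval from 239 to 52719 that covers counting error only and is wide because the lower group held 1 read. RANKL alone exceeded PRDX1 + RANKL by 30.5 times (interval 23.2 to 40.8). The fitted log2 changes were 3.46 for RANKL (SE 0.12, adjusted p = 5.72e-09), -3.05 for PRDX1 added to RANKL (SE 0.12, adjusted p = 4.90e-08) and -3.08 for the interaction (SE 0.17, adjusted p = 2.05e-06). The low counts make these values depend on the pseudocount. Oscar passed the filter only through the groups with RANKL, so these calls are a description. In reads, Oscar was also higher with RANKL in the presence of PRDX1 (54 against 4, a ratio of 10.2, interval 3.77 to 38.8), whereas the fitted log2 of 0.37 was not called. It became 1.72 with a pseudocount of 0.1 and 3.06 by voom on the recovered reads, and was called in both. The same held for both treatments against neither, with 54 reads against 1 (a ratio of 43.8, interval 7.53 to 1760). The fitted log2 of 0.41 was not called there, and it became 2.04 with a pseudocount of 0.1 (limma adjusted p = 4.46e-04) and 4.65 by voom (adjusted p = 2.66e-05). No difference between PRDX1 alone and neither treatment was detectable at this depth.

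Trem2 (NM_031254, chr17:48346401-48352276, plus strand), a lipid-sensing receptor of macrophages, microglia and osteoclasts that pairs with DAP12, moved the opposite way. Its FPKM was 406 and 389 with neither treatment, 514 and 518 with PRDX1, 189 and 202 with RANKL, and 318 and 309 with both. The groups did not overlap, and at either RANKL state the libraries with PRDX1 were the higher ones. RANKL lowered Trem2 to 0.494 of its level (log2 -1.02, SE 0.05, adjusted p = 3.66e-08), and to 0.608 of it with PRDX1 present (log2 -0.72, SE 0.05, adjusted p = 1.83e-06). PRDX1 raised it 1.60-fold in the presence of RANKL (log2 0.68, SE 0.05, adjusted p = 2.03e-06). Without RANKL the difference of 0.38 (SE 0.05, adjusted p = 2.13e-04) did not reach 1.5-fold. The interaction of 0.30 (SE 0.06, adjusted p = 0.00800) was not called either.

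The 250 bases upstream of the annotated starts of Oscar and Trem2 are shown because these receptors of the same costimulatory pathway moved in opposite directions. They come from RefSeq (GRCm38.p6, the same assembly as mm10), read 5′ to 3′ on the strand of the gene, and overlap no exon annotated in GENCODE. Capitals mark matches, on either strand, to GAGGAA (the core bound by PU.1), TGGAAA (the core bound by NFAT) or TGANTCA. The last is looser than the consensus of an AP-1 site, since it takes any base at N. The windows lie at chr7:3616158-3616407 and chr17:48346151-48346400.
Oscar: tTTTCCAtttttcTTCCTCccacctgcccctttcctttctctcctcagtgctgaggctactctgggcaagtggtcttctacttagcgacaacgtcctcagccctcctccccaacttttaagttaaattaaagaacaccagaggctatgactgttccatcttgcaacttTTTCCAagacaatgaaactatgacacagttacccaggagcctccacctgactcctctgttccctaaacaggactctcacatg
Trem2: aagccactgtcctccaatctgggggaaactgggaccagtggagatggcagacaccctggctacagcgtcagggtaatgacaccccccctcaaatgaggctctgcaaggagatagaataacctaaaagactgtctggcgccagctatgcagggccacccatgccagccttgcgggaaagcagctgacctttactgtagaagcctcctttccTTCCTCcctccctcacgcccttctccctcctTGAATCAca
The Oscar window held 2 matches to the NFAT core and 1 to the PU.1 core. The Trem2 window held 1 match to the PU.1 core and 1 to TGANTCA. The latter read TGAATCA, which lies outside the AP-1 consensus. Of 32817 promoter windows of the same length, 23.3% held the PU.1 core, 18.6% the NFAT core and 6.75% a match to TGANTCA. Neither window held CACGTG, an E-box that MITF binds (6.02% of windows), or GGGANTTTC, the core of an NF-κB site (0.942%). A match describes these letters only and is not evidence of binding. RefSeq windows matched 8 of the 10 genes, and the windows of the others are not used here.

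Tyrobp (NM_011662, chr7:30413782-30417579, plus strand) encodes DAP12, the ITAM adaptor of TREM2 and SIGLEC-15. It was the most abundant of the 10 genes in every library, at 1421 and 1242 FPKM with neither treatment, 1387 and 1372 FPKM with PRDX1, 1288 and 1263 FPKM with RANKL, and 1211 and 1189 FPKM with both. The libraries with neither treatment lay far apart and overlapped those of PRDX1 alone and of RANKL alone, and no comparison was called. RANKL gave a log2 difference of -0.06 (95% confidence interval -0.19 to 0.07), PRDX1 0.05 without RANKL (-0.07 to 0.18) and -0.09 with it (-0.21 to 0.04). The difference of -0.20 made by RANKL in the presence of PRDX1 passed the adjusted threshold (SE 0.06, adjusted p = 0.0178) without reaching 1.5-fold.

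Fcer1g (NM_010185, chr1:171229572-171234349, minus strand) encodes FcRγ, the ITAM adaptor of OSCAR and of the activating Fcγ receptors. Its FPKM was 663 and 630.2 with neither treatment, 649 and 664 with PRDX1, 387 and 381 with RANKL, and 443 and 442 with both. Libraries without RANKL overlapped, those with RANKL lay lower, and those with PRDX1 + RANKL lay between. RANKL lowered Fcer1g to 0.595 of its level (log2 -0.75, SE 0.04, adjusted p = 1.37e-07). With PRDX1 present the difference of -0.57 (SE 0.04, adjusted p = 3.77e-06) stayed short of 1.5-fold. It was past that threshold under quantile normalization (-0.60) and upper quartile scaling (-0.62). PRDX1 in the presence of RANKL gave 0.20 (SE 0.04, adjusted p = 0.00250).

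Ratios within libraries set the receptors and adaptors against each other. Trem2 stood at 0.286 and 0.313 of the Tyrobp FPKM with neither treatment, at 0.370 and 0.378 with PRDX1, at 0.147 and 0.160 with RANKL and at 0.262 and 0.260 with both. Fcer1g stood at 0.467 and 0.507 of Tyrobp with neither treatment and 0.468 and 0.484 with PRDX1, which overlapped, at 0.300 and 0.302 with RANKL and at 0.365 and 0.372 with both. Oscar and Fcer1g, receptor and adaptor, moved in opposite directions with RANKL: Oscar reached 0.0230 and 0.0298 of the Fcer1g FPKM with RANKL alone and 7.52e-04 and 7.72e-04 with PRDX1 + RANKL.

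**Figure D3:**
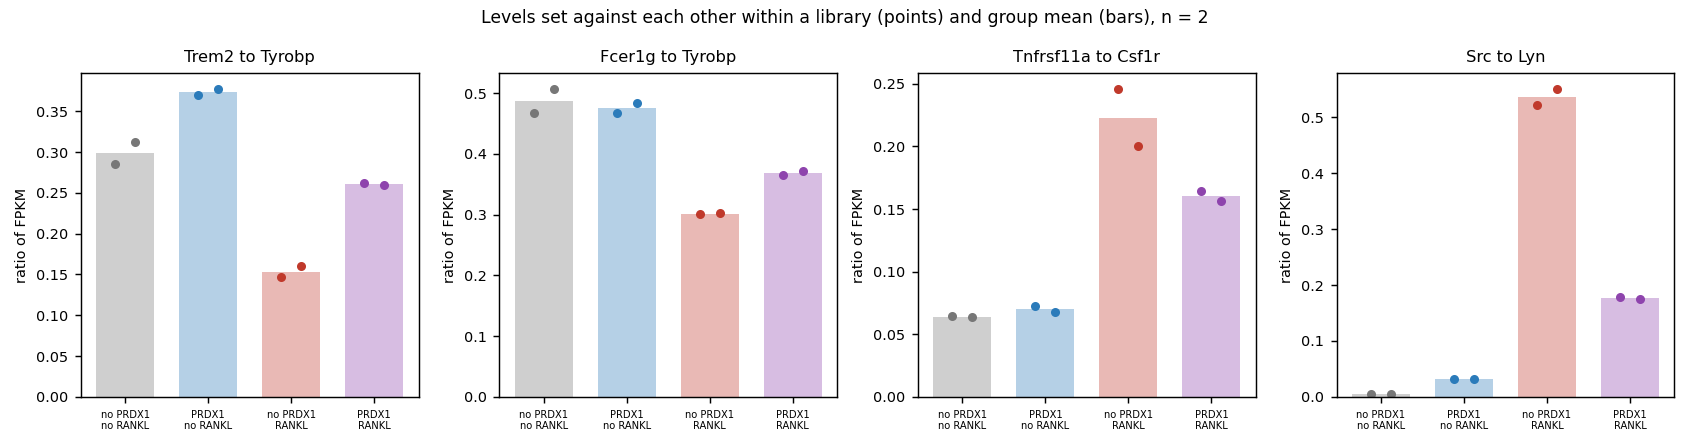
Ratios of FPKM between 4 pairs of genes (vertical axes starting at 0), with points for the 2 libraries of a group and bars for their mean. RANKL alone has the lowest Trem2 to Tyrobp ratio, with a mean of 0.154, and the highest Src to Lyn ratio, with a mean of 0.537.

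Syk (NM_001198977, chr13:52583437-52648792, plus strand), the tyrosine kinase that docks on phosphorylated ITAMs, had 37.1 and 36.7 FPKM with neither treatment, 44.5 and 46.0 FPKM with PRDX1, 43.1 and 45.6 FPKM with RANKL, and 49.4 and 49.9 FPKM with both. PRDX1 alone and RANKL alone overlapped, above neither treatment and below both. PRDX1 without RANKL gave 0.29 (SE 0.05, adjusted p = 0.00213), RANKL without PRDX1 0.26 (SE 0.05, adjusted p = 0.00137), and both treatments against neither 0.42 (SE 0.05, adjusted p = 9.23e-05). All were short of 1.5-fold.

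Plcg2 (NM_172285, chr8:117498275-117635142, plus strand), the phospholipase downstream of SYK, was steady by comparison. It had 39.6 and 40.8 FPKM with neither treatment, 37.98 and 39.5 FPKM with PRDX1, 36.3 and 40.6 FPKM with RANKL, and 43.2 and 43.6 FPKM with both. PRDX1 + RANKL stood above the other libraries, which lay between 36.3 and 40.8 FPKM. No comparison was called, and the largest fitted difference among the 5 pairwise comparisons was 0.17, for PRDX1 with RANKL (SE 0.06, adjusted p = 0.0408). It was 0.10 without no PRDX1 + RANKL replicate 1 and 0.25 without replicate 2 of that group.

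Src (NM_009271, chr2:157424293-157471838, plus strand), the founding Src family kinase, was the gene of the set that passed the test in every comparison. Its FPKM was 0.698 and 0.798 with neither treatment, 4.13 and 4.19 with PRDX1, 37.6 and 41.3 with RANKL, and 14.4 and 14.0 with both. The 4 groups stood apart without overlap, and RANKL alone was highest. PRDX1 raised Src 2.95-fold without RANKL (log2 1.56, SE 0.07, adjusted p = 4.32e-07) and lowered it to 0.377 of its level with RANKL (log2 -1.41, SE 0.07, adjusted p = 4.13e-07). The interaction was -2.97 (SE 0.10, adjusted p = 1.47e-07). RANKL raised Src 23.1-fold without PRDX1 (log2 4.53, SE 0.07, adjusted p = 3.92e-11) and 2.95-fold with it (log2 1.56, SE 0.07, adjusted p = 2.20e-07). Both treatments against neither gave 3.12 (SE 0.07, adjusted p = 1.21e-09). These folds are of FPKM + 1. They understate the rises in FPKM from neither treatment, where the mean of Src was 0.748 FPKM, and the size of the interaction depends on the pseudocount as well.

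Against Lyn, the Src family kinase that phosphorylates ITAMs in many myeloid cells, Src stood at 0.00507 and 0.00571 of the FPKM with neither treatment, 0.0325 and 0.0327 with PRDX1, 0.523 and 0.552 with RANKL, and 0.179 and 0.175 with both. Lyn itself fell with RANKL by 0.91 on the log2 scale (SE 0.04, adjusted p = 5.19e-08). Fgr, another kinase of the family, had a mean ratio to Lyn of 0.00892 with neither treatment, 0.0260 with PRDX1, 0.607 with RANKL and 0.401 with both. RANKL alone thus had the highest ratio for both kinases.

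The sum of the osteoclast markers stood in the order of Src, though not each marker did. Summed FPKM, over 8 genes from Acp5 to Itgb3, ranged from 34.4 to 35.3 with neither treatment, 80.3 to 84.7 with PRDX1, 1825 to 1920 with RANKL, and 235 to 242 with PRDX1 + RANKL. Acp5, the tartrate-resistant acid phosphatase of osteoclasts, made up most of the sum, with means of 23.6 FPKM with neither treatment, 53.7 FPKM with PRDX1, 1105 FPKM with RANKL and 162 FPKM with both. Itgb3 broke the order, with means of 1.88, 0.662, 21.7 and 1.56 FPKM in the same groups, and Calcr, the calcitonin receptor, was at 0 in the libraries without RANKL. The 5 macrophage markers summed to between 1498 and 1532 FPKM with neither treatment, 1809 and 1862 FPKM with PRDX1, 1023 and 1093 FPKM with RANKL, and 1400 and 1426 FPKM with both, with RANKL alone lowest as for Trem2. The part of either in the levels of the 10 genes was not tested. Markers of T cells, NK cells, mast cells and basophils, and platelets did not exceed 0.275 FPKM in any library, those of B cells 0.911 FPKM and those of neutrophils 1.74 FPKM. Cd3e, Ncr1, Gzma, Cpa3, Ms4a2 and Fcer1a had 0 reads throughout. The neutrophil sum was 1.03 to 1.92 FPKM with neither treatment and 3.51 to 4.04 FPKM with PRDX1, and 1.40 to 2.53 FPKM with RANKL and 3.11 to 3.97 FPKM with both. The B cell sum was 0.577 to 0.960 FPKM with neither treatment and 1.57 to 2.08 FPKM with PRDX1, and 0.617 to 0.913 FPKM with RANKL and 1.36 to 1.58 FPKM with both. The dendritic cell sum was highest with both treatments, at 3.38 to 4.20 FPKM, and 1.58 to 2.43 FPKM elsewhere. Their part was not tested.

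On the wider list of receptors that signal through DAP12 or FcRγ, many genes were called. The list, which includes the integrin subunit Itgb3, was chosen with earlier results of these data known. A share above that of all genes is therefore a description. Of 23 genes listed, 22 were in the table and 21 were tested, none of them among the 10 genes above. RANKL without PRDX1 raised 7 and lowered 10 of the 21, with a median log2 change of -0.51, where 21.8% of all genes tested were called and their median was 0.10. PRDX1 without RANKL raised 8 and lowered 1 (Itgb3), with a median of 0.22, against 5.79% and -0.04 over all genes. PRDX1 in the presence of RANKL raised 10 and lowered 2 (Siglec15 and Itgb3), with a median of 0.51, against 10.2% and -0.06 over all genes. Siglec15, which passed the filter on low values only through the groups with RANKL, is counted in all of these. The interaction was called for 12 of them, 7 in the positive direction and 5 in the negative (Siglec15, Itgb3, Sirpb1a, Sirpb1b and Sirpb1c), against 8.85% of all genes, 4.5% positive and 4.35% negative.

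Siglec15, a DAP12-coupled sialic acid receptor involved in osteoclast fusion, had 0.088 and 0.227 FPKM with neither treatment, 0.455 and 0.245 FPKM with PRDX1, 13.2 and 13.4 FPKM with RANKL, and 0.851 and 1.38 FPKM with both. It rose by 3.63 on the log2 scale with RANKL (SE 0.14, adjusted p = 1.01e-08) and changed by -2.77 when PRDX1 was added (SE 0.14, adjusted p = 2.54e-07). Itgb3, the integrin subunit of the osteoclast adhesion receptor αvβ3, had 1.81 and 1.95 FPKM with neither treatment, 0.714 and 0.610 FPKM with PRDX1, 20.5 and 22.8 FPKM with RANKL, and 1.53 and 1.59 FPKM with both. Its log2 change was 2.98 with RANKL (adjusted p = 2.03e-09), -0.79 with PRDX1 alone (adjusted p = 1.32e-04) and -3.15 with PRDX1 added to RANKL (adjusted p = 9.04e-09). Siglec15 was under 0.5 FPKM in each library without RANKL, as was Oscar, so that both entered the test through the groups in which they were high, and their calls are given as a description. Itgb3, which passed the filter without RANKL too, was called in the same directions. Itgb3 also stands in the list of osteoclast markers.

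The activating Fcγ receptors, which carry antibody signals through FcRγ, showed the reverse. Fcgr1, the high-affinity receptor, had 112 and 113 FPKM with neither treatment, 163 and 161 FPKM with PRDX1, 9.07 and 7.90 FPKM with RANKL, and 50.1 and 52.4 FPKM with both. Its log2 change was -3.59 with RANKL (SE 0.06, adjusted p = 5.76e-11) and 2.46 with PRDX1 added to RANKL (SE 0.06, adjusted p = 5.04e-09). Without RANKL, PRDX1 gave 0.52 (adjusted p = 1.82e-04), short of 1.5-fold. Fcgr3 and Fcgr4, which were picked after their values were seen, also fell with RANKL, by 2.43 and 0.93 on the log2 scale, and PRDX1 raised them in the presence of RANKL by 0.93 and 0.87. Fcgr1 also stands in the list of macrophage markers. Clec4n, encoding the fungal receptor dectin-2 and likewise picked after its values were seen, rose with PRDX1 by 1.15 without RANKL and by 1.08 with RANKL, whereas RANKL gave 0.09. The genes Sirpb1a, Sirpb1b and Sirpb1c, all raised by PRDX1 without RANKL, are near-identical copies between which reads can be split, as are Pira2 and Pirb, so the separate values of these genes are uncertain.

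**Figure D4:**
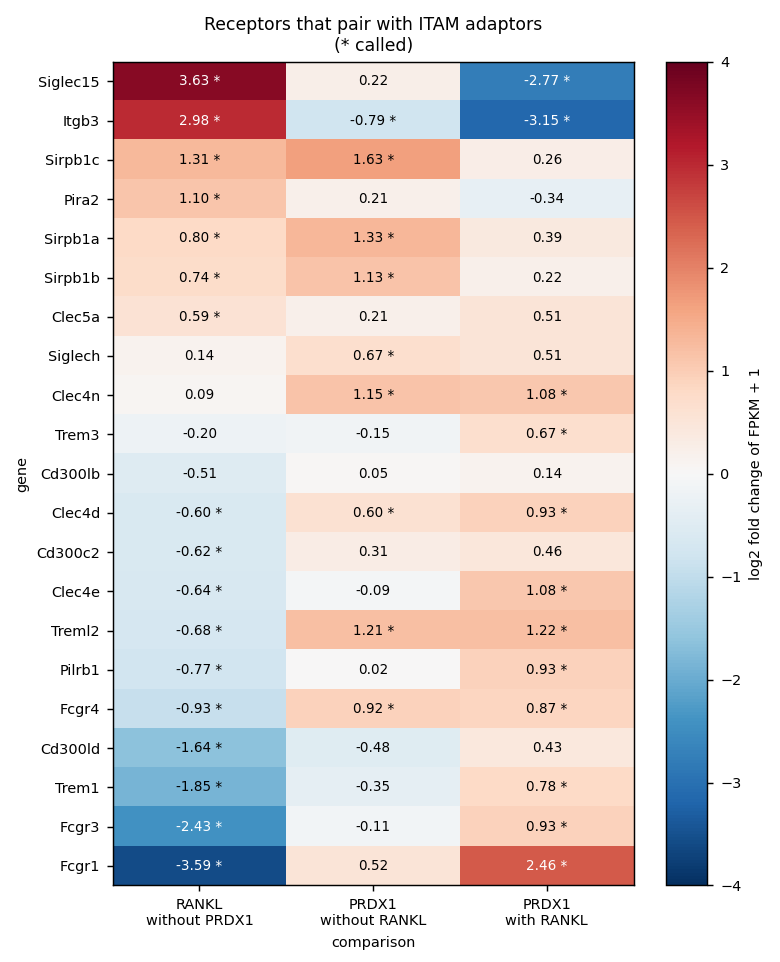
Log2 fold changes of FPKM + 1 (colour and printed values, asterisks for calls) in 3 comparisons (horizontal axis). The vertical axis holds the 21 tested genes listed as receptors that pair with ITAM adaptors, the integrin subunit Itgb3 among them. Siglec15 and Itgb3, at the top, change by 3.63 and 2.98 with RANKL and by -2.77 and -3.15 when PRDX1 is added to it, and Fcgr1, at the bottom, by -3.59 and 2.46.

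The list of inhibitory receptors and phosphatases holds genes that can oppose ITAM signals, some of them through SHP-1 or SHIP. RANKL raised 6 and lowered 8 of the 20 tested (median -0.03), where 21.8% of all genes were called (median 0.10). PRDX1 raised 2 (Cd200r1 and Cd300lf) and lowered 0 without RANKL (median 0.13), against 5.79% of all genes (median -0.04). With RANKL it raised 5 (Cd200r1, Cd300lf, Fcgr2b, Lilrb4a and Pilra) and lowered 0 (median 0.14), against 10.2% (median -0.06). Voom also lowered 0 in both, and 4 genes in each were lower at an unadjusted limma p under 0.05. Cd200r1, an inhibitory receptor of myeloid cells, had 41.4 and 37.1 FPKM with neither treatment, 62.9 and 60.2 FPKM with PRDX1, 9.74 and 8.10 FPKM with RANKL, and 32.2 and 30.2 FPKM with both. Its log2 change was -2.02 with RANKL (adjusted p = 2.08e-08) and 1.70 with PRDX1 added to RANKL (adjusted p = 2.57e-07). Its rise of 0.64 with PRDX1 alone was no longer called without no PRDX1 + no RANKL replicate 2 (0.56). Fcgr2b, the inhibitory Fcγ receptor, changed by -1.65 with RANKL (adjusted p = 6.28e-08) and by 1.17 with PRDX1 added (adjusted p = 2.09e-06), in the directions of the activating receptors. Ptpn22, a phosphatase that acts on Src family kinases, rose by 1.81 with RANKL (adjusted p = 1.58e-09). Its difference of -0.57 when PRDX1 was added lay just short of 1.5-fold, and was called without no PRDX1 + RANKL replicate 1 (-0.59).

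Adaptors and kinases downstream of ITAMs had 4 higher (Fgr, Bcar1, Ptk2 and Prkcd) and 5 lower (Lyn, Vav3, Tec, Lcp2 and Ptk2b) of 22 tested with RANKL (median -0.15), beside 21.8% of all genes called and a median of 0.10. Bcar1 passed the filter on low values only through the groups with RANKL. PRDX1 alone had 3 higher (Fgr, Ptk2 and Cblb) and 0 lower (median -0.03), and PRDX1 added to RANKL 1 higher (Ptk2) and 1 lower (Bcar1, median 8.79e-04). Over all genes 5.79% and 10.2% were called in these comparisons, with medians of -0.04 and -0.06. Voom also lowered 0 with PRDX1 alone, where 5 genes were lower at an unadjusted limma p under 0.05. Fgr, a Src family kinase, had 1.14 and 1.34 FPKM with neither treatment, 3.50 and 3.12 FPKM with PRDX1, 43.3 and 45.7 FPKM with RANKL, and 32.6 and 31.9 FPKM with both. RANKL raised Fgr by 4.35 on the log2 scale (adjusted p = 6.25e-11), beside 4.53 for Src. With neither treatment the means were 1.24 FPKM for Fgr and 0.748 FPKM for Src, so the pseudocount shrinks the value of Src more. PRDX1 added to RANKL gave Fgr -0.45 (SE 0.08, adjusted p = 8.83e-04), which was not called, where Src fell by 1.41. The difference between both kinases was not tested. Bcar1, the scaffold p130Cas that Src phosphorylates, rose by 1.84 with RANKL (adjusted p = 6.57e-07) and changed by -0.61 with PRDX1 added, a call that ended under upper quartile scaling (-0.57), without no PRDX1 + RANKL replicate 2 (-0.54) and without PRDX1 + RANKL replicate 2 (-0.57). Vav3, a guanine nucleotide exchange factor of the osteoclast cytoskeleton, fell by 1.34 with RANKL (adjusted p = 3.02e-08).

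In the list of RANK adaptors and kinases, 4 genes were higher (Traf1, Traf2, Traf3 and Map3k14) and 1 lower (Map2k6) of 20 tested with RANKL (median 0.11), a share near the 21.8% of all genes called, whose median was 0.10. With PRDX1 alone 2 were higher (Traf1 and Sqstm1) and 0 lower (median -0.03), and with PRDX1 added to RANKL 1 was higher (Sqstm1) and 0 lower (median -0.10), against 5.79% and 10.2% of all genes, with medians of -0.04 and -0.06. Voom lowered 1 gene in each of the PRDX1 comparisons, and 5 and 10 genes were lower at an unadjusted limma p under 0.05. The members that changed most were other TRAF proteins. Traf1 had 1.29 and 1.21 FPKM with neither treatment, 2.97 and 2.62 FPKM with PRDX1, 58.3 and 62.6 FPKM with RANKL, and 42.7 and 40.7 FPKM with both, and rose by 4.77 with RANKL (SE 0.07, adjusted p = 2.71e-11). Traf3, a brake on noncanonical NF-κB signaling, rose by 1.43 with RANKL (adjusted p = 9.16e-08) and differed by -0.04 when PRDX1 was added (adjusted p = 0.705). Traf2 rose by 1.27 with RANKL (adjusted p = 4.45e-07). Sqstm1, whose product p62 is a scaffold for TRAF6 and was picked after its values were seen, had 152 and 160.0 FPKM with neither treatment, 273 and 278 FPKM with PRDX1, 149.9 and 165 FPKM with RANKL, and 279 and 287 FPKM with both. PRDX1 raised it by 0.81 without RANKL (adjusted p = 3.20e-06) and by 0.85 with RANKL (adjusted p = 1.12e-06), while RANKL gave 0.01. Tnfsf11, which encodes RANKL itself, did not exceed 0.114 FPKM in any library.

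The list of M-CSF receptor ligands and signaling had 3 higher (Pik3cb, Mitf and Spi1) and 3 lower (Pik3cg, Gab1 and Mapk3) of 20 tested with RANKL (median -0.02), where 21.8% of all genes were called with a median of 0.10. PRDX1 alone had 1 higher (Csf1) and 0 lower (median -0.12), and PRDX1 added to RANKL also 1 higher (Csf1) and 0 lower (median -0.00421). For all genes the shares were 5.79% and 10.2% and the medians -0.04 and -0.06, so the counts of this list lay near or below those of all genes with PRDX1. Voom lowered 0 and 1 gene in the PRDX1 comparisons, and 9 and 7 were lower at an unadjusted limma p under 0.05. Csf1, which encodes M-CSF, had 1.93 and 2.75 FPKM with neither treatment, 4.33 and 5.02 FPKM with PRDX1, 1.61 and 1.63 FPKM with RANKL, and 4.32 and 5.25 FPKM with both. PRDX1 raised it by 0.77 without RANKL (SE 0.13, adjusted p = 0.00167) and by 1.14 with RANKL (SE 0.13, adjusted p = 7.66e-05). The 4 stromal markers, whose cells are a known source of M-CSF, summed to 7.27 to 9.87 FPKM with neither treatment, 15.6 to 15.7 FPKM with PRDX1, 7.02 to 8.92 FPKM with RANKL, and 14.6 to 18.2 FPKM with both. Their part in the rise of Csf1 was not tested. Of the catalytic subunits of PI3 kinase, Pik3cb rose by 0.98 with RANKL (adjusted p = 5.70e-07) and Pik3cg fell by 0.91 (adjusted p = 8.76e-07).

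Downstream, the calcium and NFAT list had 4 higher (Fos, Nfatc1, Orai2 and Rcan1) and 2 lower (Camk1 and Stim1) of 22 tested with RANKL (median -0.05), a share not far from the 21.8% of all genes (median 0.10). PRDX1 alone had 1 higher (Fos) and 0 lower (median -0.11), and PRDX1 added to RANKL 0 higher and 3 lower (Nfatc1, Rcan1 and Orai2, median 0.03), beside 5.79% and 10.2% of all genes, with medians of -0.04 and -0.06. Voom gave the same counts of 0, beside 9 genes lower with PRDX1 alone and 5 higher with PRDX1 added to RANKL at an unadjusted limma p under 0.05. Nfatc1 had 9.54 and 11.1 FPKM with neither treatment, 7.64 and 7.76 FPKM with PRDX1, 50.3 and 55.4 FPKM with RANKL, and 15.6 and 15.7 FPKM with both. Orai2, a store-operated calcium channel subunit, rose by 1.77 with RANKL (adjusted p = 1.07e-07) and fell by 0.70 when PRDX1 was added (adjusted p = 1.97e-04). Fos, the AP-1 subunit that RANKL induces before NFATc1, rose by 1.52 with PRDX1 alone (adjusted p = 4.26e-07) and by 3.06 with RANKL (adjusted p = 4.26e-10), and PRDX1 added to RANKL gave 0.13 (adjusted p = 0.182). In the PRDX1 + RANKL cells Fos stood at 128 and 139 FPKM, beside 117 and 127 FPKM with RANKL alone, whereas Nfatc1 fell by 1.69 against RANKL alone (adjusted p = 1.30e-07). The difference between these genes was not tested.

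Among all genes tested outside the set, the patterns most like those of 3 receptors over the 8 libraries were found by Pearson's r of log2(FPKM + 1), a description over libraries that share their groups. Nearest to Tnfrsf11a were Grk3 (r = 0.999), Pde4dip (r = 0.998) and Tbrg1 (r = 0.997). Nearest to Csf1r were P4ha2 (r = 0.995), Aldh2 (r = 0.995) and Lrrc25 (r = 0.992). Nearest to Oscar were Mst1r (r = 0.998), Slc18a1 (r = 0.998) and Plekhf1 (r = 0.998). Mst1r, a receptor tyrosine kinase, had a mean of 8.51 FPKM with RANKL and 0.402 FPKM with both treatments, beside 10.1 and 0.337 FPKM for Oscar.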

How the data were processed

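Reads were aligned with HISAT2 and counted by the authors with HOMER, per the labels and the file header, on RefSeq exons (mm10), on both strands and with 1 transcript kept per gene. The deposited values are FPKM for 25124 genes in 8 libraries. The notes also name DESeq2, and tool versions are not given in the sources used here. Counting without strand cannot separate overlapping genes, but no exon of another gene in GENCODE overlapped those of the 10 genes. The reads behind each FPKM and the library totals were recovered from its steps: with transcript length accounted for, 100% of the values checked came out as whole reads, within the rounding of the printed digits.

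All 4 groups entered 1 limma model (limma 3.58.1, R 4.3.3) of log2(FPKM + 1) with a mean-variance trend. It covered the 11700 genes with a mean of at least 0.5 FPKM and left 4 residual degrees of freedom. Benjamini-Hochberg adjustment ran over those genes. The scripts were tested on simulated data. Ratios of Oscar reads have exact conditional binomial intervals at 95%, for counting error only, and the floor was 3 reads. Replicate libraries differed by more than sampling noise, by a chi-square of 4.71 to 9.58 for each degree of freedom, and were kept apart. With 2 libraries against 2, permutation cannot give a p below 0.333. No Csf1r sequence was read here.

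The members and gene lists were chosen with earlier results of these data known. Genes named from each of the 6 wider lists were up to 3 with the largest change among the calls for PRDX1 without RANKL, PRDX1 with RANKL and RANKL without PRDX1, and the other genes named were picked after their values were seen. Some genes of the lists are not reported here. The nearest patterns were the 3 genes with the highest r for each of 3 receptors. Markers and positions came from fixed lists and from the file. Alternatives were the pseudocount, the filters, 2 scalings, voom on the recovered reads, a replicate block, only the libraries compared, and leaving out each library.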

Additional observations from a re-analysis of the deposited data

Results flagged for a closer look

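The effect of PRDX1 with RANKL minus its effect without RANKL, tested as an interaction by limma, was called for 29 of the 66 genes that are named and were tested, and for 8.85% of all genes. Many of the 66 were named for the size of their change or after their values were seen, so this count says nothing of how common such a difference is. Among the 10 genes it was -3.08 on the log2 scale for Oscar and -2.97 for Src. For Oscar the value rests on groups under 3 reads per library without RANKL, so its size depends on the pseudocount. It restates the change with RANKL, as PRDX1 had no level of Oscar to lower without RANKL. For Src, both libraries with PRDX1 alone stood above both with neither treatment. Both libraries with PRDX1 + RANKL stood below both with RANKL alone. The size of the Src value depends on the pseudocount too, since Src was under 1 FPKM with neither treatment.

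Among the genes named from the wider lists for the size of their change, the interaction was -2.99 for Siglec15, -2.36 for Itgb3, -1.40 for Fgr, -1.40 for Fos, -1.32 for Nfatc1, -1.28 for Traf1, -0.93 for Bcar1 and -0.90 for Pik3cb. It was positive for Fcgr1 at 1.95, for Cd200r1 at 1.07, for Fcgr2b at 0.91 and for Pik3cg at 0.66. Siglec15 and Bcar1, like Oscar, passed the filter on low values only through the groups with RANKL.

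Among the other list genes named, it was -3.91 for Acp5, an osteoclast marker, -1.39 for Rcan1, -0.89 for Mitf and -0.61 for Cblb. The near-identical genes Sirpb1a, Sirpb1b and Sirpb1c had -0.94, -0.91 and -1.37. Positive values were 1.05 for Fcgr3, 0.81 for Lilrb4a and 0.75 for Map2k6. Of the genes named for their likeness to Oscar, Mst1r had -2.79, Slc18a1 -1.86 and Plekhf1 -1.54, and of those like Tnfrsf11a, Grk3 had -1.31 and Pde4dip -0.84. These 5 were chosen for a pattern over the same libraries, so their values are no independent result, and Mst1r and Slc18a1 passed the filter only through RANKL alone, with means of 8.51 and 3.99 FPKM there and under 0.5 FPKM in the other groups. Groups of 2 libraries are too small for a test of single outlying libraries.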

How the results depend on the processing

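Counts of the 10 genes called stayed within 1.5 times their value in each comparison under every alternative run, with these exceptions. With PRDX1 present, RANKL raised 2 genes in place of 1 with a pseudocount of 0.1 and by voom on the recovered reads, the added gene being Oscar. For both treatments against neither, 1 gene was higher in place of 2 under quantile normalization and upper quartile scaling, where Tnfrsf11a fell short of 1.5-fold. The log2 changes of the 10 genes kept direction and call in 912 of the alternatives computed, gained a call in 6, lost it in 2 and changed sign in 14, all of these uncalled values near 0. For Traf6 under quantile normalization and upper quartile scaling they were -0.0345 and -0.0104 for RANKL with PRDX1, and -0.0366 and -0.0153 for both treatments against neither. For Tyrobp under quantile normalization they were -0.0477 for PRDX1 without RANKL and 0.0477 for the interaction. Leaving out single libraries, Traf6 ranged from -0.0858 to 0.00890 for PRDX1 without RANKL, from -0.00861 to 0.0861 for RANKL with PRDX1 and from -0.00893 to 0.00951 for both against neither. Tyrobp ranged from -0.0431 to 0.151 for PRDX1 without RANKL and from -0.156 to 0.0376 for RANKL without PRDX1, Fcer1g from -0.0157 to 0.0577 for PRDX1 without RANKL, and Plcg2 from -0.144 to 0.0140 for RANKL without PRDX1. Of the other genes named, Traf3 became 0.00862 for PRDX1 with RANKL under upper quartile scaling, and Traf2 ranged from -0.150 to 0.0623 for PRDX1 without RANKL. The cause was not tested. A replicate block changed 0 calls among the 10 genes and gave 676 calls over all genes against 678 without the block for PRDX1 without RANKL. The replicate numbers do not pair the libraries: deviations of same-numbered libraries correlated by 0.00847 to 0.0965. Depth limits Oscar without RANKL, and no other gene of the 10 was near the floor.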
